A study of Mus musculus with 6 samples.

Results

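Complexes III, IV and V are the last enzymes of the mitochondrial respiratory chain, and their nuclear-encoded subunits were followed here at the RNA level in whole mouse lung. The 38 genes were listed by name: 9 subunits of complex III, cytochrome c, 12 subunits of complex IV and 16 genes of complex V. Muscle isoforms of complex IV were not members. A gene was measured where the array annotation gave its symbol, old or current, as the only gene of a probe set. This held for 36 of the 38 genes, with 64 probe sets, out of 17097 genes and 45037 probe sets in all. Uqcrh and Cox7b were not analysed here. The study compared lungs of 6 male mice of the inbred strain BALB/c, 10 weeks of age, with no engineered allele named in the labels. Normal air was given to 3 control mice and 2% H2 in air to 3 hydrogen mice, for 3 weeks. Lungs of both groups were kept in RNAlater before RNA was made, and each array held 1 sample. The design asks which lung transcripts differ after the hydrogen exposure.

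Complex III takes electrons from ubiquinol and hands them to cytochrome c, a small soluble heme protein. Complex IV, cytochrome c oxidase, passes them on to oxygen, and both complexes pump protons out of the matrix. Complex V, the ATP synthase, lets the protons return through a ring of c subunits and uses the rotation to make ATP. Cytochrome c also triggers apoptosis when it leaks into the cytosol. The lung is known for its own isoform of subunit 4 of complex IV, encoded by Cox4i2, while heart and skeletal muscle use their own isoforms of subunits 6a, 7a and 8.

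All values are deposited log2 expression values of a probe set, where a difference of 1 is a doubling. Medians of the arrays were 4.75 to 4.85. With 3 arrays a group, precision is limited by their number. Arrays correlated over genes at r = 0.995 to 0.997 within a group and 0.980 to 0.988 between groups. Of 85 spike-in and nonspecific control probe sets, 27 were lower and 15 higher in the hydrogen group (limma adjusted p under 0.05). The labels give no batch, so a batch that follows the groups cannot be told apart from the exposure. Surfactant and other markers of alveolar type 2 cells and markers of alveolar type 1 cells, which define lung tissue, were bright in all mice (list means 10.8 to 10.9 and 10.8 to 11.0).

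Most members were lower in the lungs of the hydrogen mice, by small amounts. With each gene read from its brightest probe set, 23 of the 36 measured genes fell, 1 rose (Cox4i2) and 12 did not pass (limma with Benjamini-Hochberg adjustment over 17097 genes, adjusted p under 0.05). The background was high: 52.5% of all genes were called, 26.4% lower and 26.1% higher, against 63.9% of the members called lower. Bright genes were lower more often than dim ones, and among the 1759 genes with a mean log2 value from 8.55 to 11.42, the range of all members but Cox4i2, 38.2% were called lower and 5.46% higher. The median log2 fold change was -0.205 over the members, -0.12 over the genes of that range and 0.01 over all genes. Fold changes of the members ran from -0.61 (Atp5g1) to 0.52 (Cox4i2). All hydrogen values lay below all control values for 26 members, as for 29.9% of all genes and 48.8% of the genes of the same brightness range. With Cox4i2 this makes 27 members whose groups lay apart, where 61.0% of all genes did so in either direction. In whole lung, fewer cells of a type and less RNA per cell cannot be told apart. The counts depended on the scaling of the arrays: after cyclic loess 11 members fell and 2 rose, against 14.6% lower in the same brightness range, and after renewed quantile normalisation 12 fell and 1 rose, against 15.1%. Over all genes, 16.2% were lower and 20.6% higher after cyclic loess, 14.7% and 23.1% after quantile normalisation, and 36.4% and 16.1% with the arrays centred on their medians, where 28 members fell. With that centring, 58.7% of the genes in the members' brightness range were lower.

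**Figure D1:**
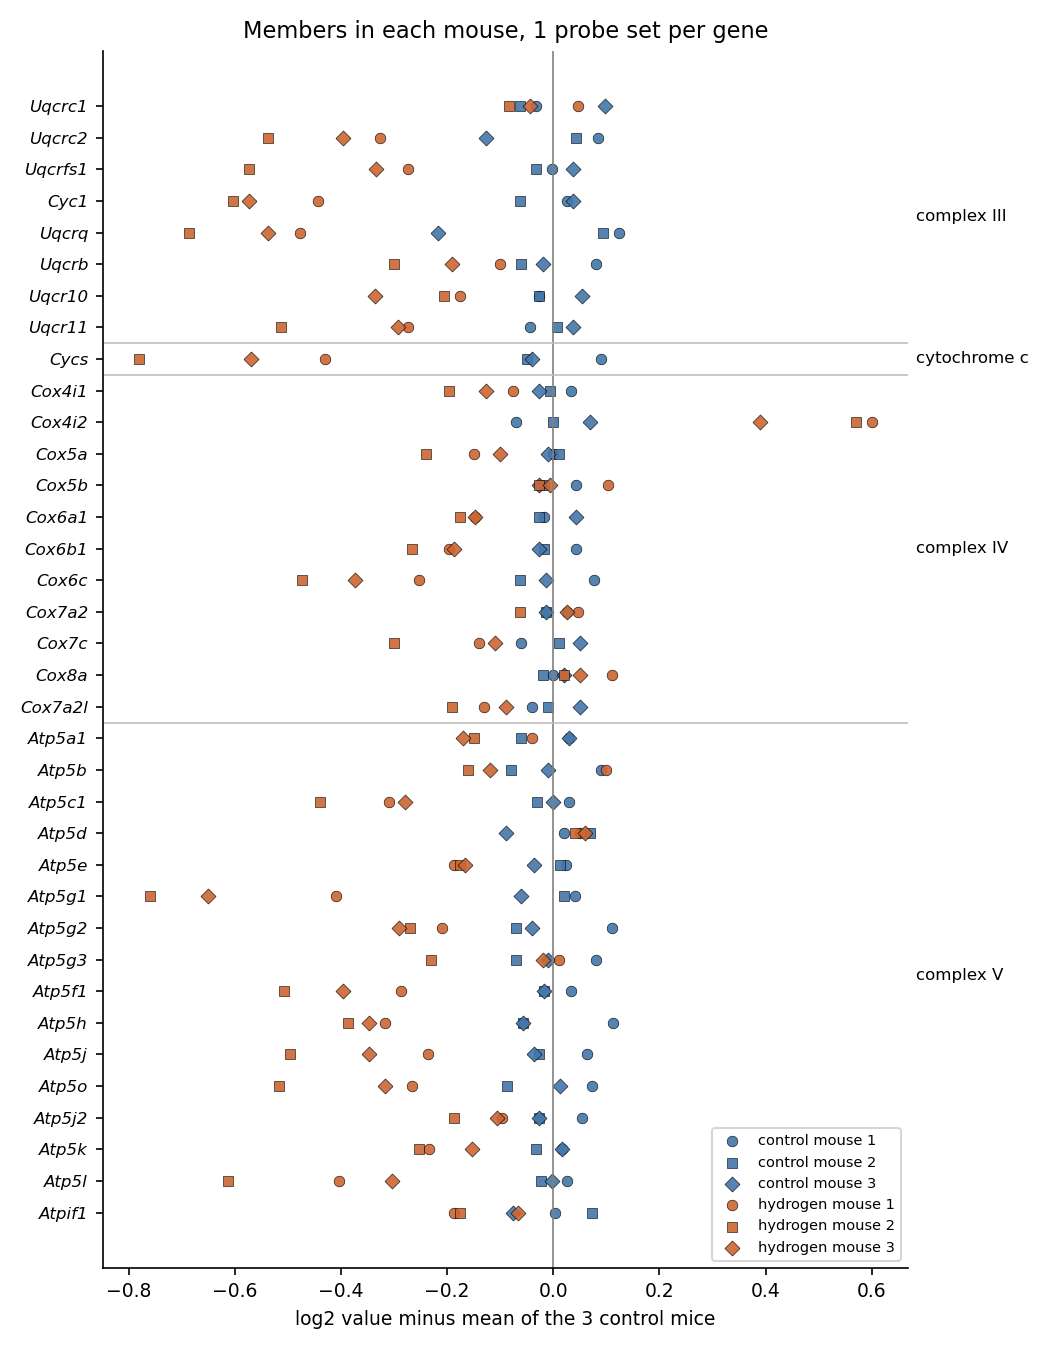
Deposited log2 value of each member gene (rows, grouped by complex) in each of the 6 mice, minus the mean of the 3 control mice (horizontal axis, log2 units). Blue points are control mice and orange points hydrogen mice, with a marker shape for each mouse; the hydrogen points lie left of all control points for 26 genes and right of them for Cox4i2.

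In complex III, 7 of 8 measured genes fell, none rose and 1 did not pass (median log2 fold change -0.38; at an unadjusted p under 0.05 limma also gave 7 lower and 0 higher). Of all genes in the brightness range of the members, 38.2% were lower, with a median of -0.12. Cyc1, the cytochrome c1 subunit that hands electrons to cytochrome c, had log2 values of 9.34, 9.25 and 9.35 in control mice 1, 2 and 3 and 8.87, 8.71 and 8.74 in hydrogen mice 1, 2 and 3. All hydrogen values lay below all control values, and the level was 1.45-fold lower (log2 fold change -0.54, SE 0.06, adjusted p = 0.000471). Uqcrq, a small subunit that binds near cytochrome b, had 9.26, 9.23 and 8.92 in controls and 8.66, 8.45 and 8.60 in hydrogen mice. The groups did not overlap, although control mouse 3 lay well below the other controls (-0.57, SE 0.10, adjusted p = 0.00216). Uqcrc2, a core subunit on the matrix side, had 10.00, 9.96 and 9.79 against 9.59, 9.38 and 9.52 (-0.42, SE 0.08, adjusted p = 0.00297). Its partner Uqcrc1, the other core subunit, did not pass, with 8.80, 8.77 and 8.93 against 8.88, 8.75 and 8.79. The groups overlapped for Uqcrc1 (-0.03, SE 0.07, adjusted p = 0.753).

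The other subunits of complex III fell by smaller amounts. Uqcrfs1, the Rieske iron-sulfur subunit, had a log2 fold change of -0.39, and the small subunit genes Uqcr11, Uqcr10 and Uqcrb had -0.36, -0.24 and -0.20. The call of Uqcrb ended without control mouse 1, 2 or 3 or hydrogen mouse 2 or 3 (adjusted p = 0.127, 0.0543, 0.0699, 0.146 and 0.0799). After cyclic loess Uqcrb was at -0.06 and Uqcr10 at -0.09 (adjusted p = 0.535 and 0.288). The bright probe sets of Uqcrq and Uqcr10 are marked as shared by several transcripts, and without such probe sets dim ones stood for these genes, at 0.77 and 0.12. After cyclic loess the complex kept 3 lower genes, Cyc1 (-0.38), Uqcrq (-0.40) and Uqcrc2 (-0.29), and Uqcrfs1 and Uqcr11 narrowly missed the threshold (adjusted p = 0.0556 and 0.0511).

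Cycs, which encodes cytochrome c, was among the lowest members. Its log2 values were 9.47, 9.33 and 9.34 in control mice and 8.95, 8.60 and 8.81 in hydrogen mice, without overlap. The level was 1.51-fold lower (log2 fold change -0.59, SE 0.09, adjusted p = 0.00123), and a further bright probe set of Cycs gave -0.64. After cyclic loess the change was -0.44.

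In complex IV, 5 of 11 measured genes fell, 1 rose and 5 did not pass, with a median log2 fold change of -0.14 (7 lower and 1 higher at an unadjusted p under 0.05 in limma). The share lower, 45.5%, and the median lay near the 38.2% and -0.12 of all genes in the same brightness range. Cox6c, a small membrane subunit, fell the most, from 11.04, 10.90 and 10.95 in control mice to 10.71, 10.49 and 10.59 in hydrogen mice (-0.37, SE 0.07, adjusted p = 0.00361). No value of one group reached the other. Cox6b1, a subunit on the intermembrane side, had 11.00, 10.94 and 10.93 against 10.76, 10.69 and 10.77 (-0.22, SE 0.06, adjusted p = 0.0114), and its call ended after cyclic loess (-0.15, adjusted p = 0.0631). Cox5a, Cox6a1 and Cox7c passed with -0.16, -0.16 and -0.18, Cox7c narrowly (limma adjusted p = 0.0491, and 0.0525 in the fit over all probe sets). After cyclic loess they had -0.09, -0.12 and -0.03 (adjusted p = 0.264, 0.102 and 0.78). These 3 calls were also lost when control mouse 1, 2 or 3 or hydrogen mouse 1 or 2 was left out, and that of Cox6a1 also without hydrogen mouse 3, so that the complex then had 2 lower genes (4 without hydrogen mouse 3). After cyclic loess Cox6c alone was called lower in complex IV, and Cox8a was called higher (0.18, limma adjusted p = 0.0282).

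Of the 5 members of complex IV that did not pass, Cox7a2, Cox5b and Cox8a lay close to 0. Cox4i1 and the brightest probe set of Cox7a2l were lower in all hydrogen mice than in any control. Cox7a2, the isoform of subunit 7a used outside muscle, had 10.81, 10.77 and 10.77 in controls and 10.83, 10.72 and 10.81 in hydrogen mice, with overlapping groups (0.003, SE 0.06, adjusted p = 0.965). Cox5b, which carries a zinc site, had 10.57, 10.51 and 10.50 against 10.63, 10.50 and 10.52 (0.02, SE 0.06, adjusted p = 0.76). Cox8a had 0.06 (adjusted p = 0.373). Cox7a2l, a factor of respiratory supercomplexes, had -0.14 (adjusted p = 0.0724) by its brightest probe set. Its further probe sets, of similar brightness, had 0.11 and 0.007 and did not pass either. For the one at 0.11 all hydrogen values lay above all control values.

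Of the isoforms of subunit 4, Cox4i2 rose and Cox4i1 did not pass. Cox4i1, the widely expressed form, had 10.91, 10.87 and 10.85 in control mice and 10.80, 10.68 and 10.75 in hydrogen mice, below all controls but not past the threshold (-0.13, SE 0.06, adjusted p = 0.0778). Cox4i2, the lung form, had 4.25, 4.32 and 4.39 against 4.92, 4.89 and 4.71 (0.52, SE 0.07, adjusted p = 0.000846), with all hydrogen values above the controls. The probe set of Cox4i2 lay below the median probe set of 4.80, in a brightness decile whose genes had a median log2 fold change of 0.20. Its rise was 0.38 after cyclic loess. The difference Cox4i2 minus Cox4i1 within an array was -6.56 ± 0.10 in controls and -5.90 ± 0.13 in hydrogen mice (SD, n = 3), a difference of 0.65 between groups (exact permutation p = 0.1, two-sided, the smallest that 3 against 3 arrays allow; 0.1 after adjustment over 4 isoform pairs).

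Of the 6 tissue-restricted isoforms of complex IV, which are not members, 4 fell, 1 rose and 1 did not pass. The 3 muscle isoforms fell, and heart muscle markers moved with them: 15 of 19 fell, with a median of -1.63 and with hydrogen mouse 2 lowest. Their part in the lower isoform values was not tested. Cox6a2, the heart and muscle form of subunit 6a, had 9.20, 8.99 and 9.04 in control mice and 8.11, 7.04 and 7.86 in hydrogen mice (log2 fold change -1.41, SE 0.23, adjusted p = 0.00162). Cox7a1 had 8.09, 7.83 and 7.83 against 6.57, 4.90 and 6.29 (-2.00, SE 0.36, adjusted p = 0.00248). Cox8b had 7.96, 7.83 and 7.78 against 7.20, 5.89 and 6.45 (-1.34, SE 0.27, adjusted p = 0.00374). Hydrogen mouse 2 was the lowest for all 3 genes, and no group overlapped the other. Within arrays, the muscle form dropped against its counterpart by 1.25 for subunit 6a, by 2.00 for subunit 7a and by 1.40 for subunit 8 on the log2 scale (exact permutation p = 0.1 for each, 0.1 after adjustment over 4 pairs, two-sided). Without hydrogen mouse 2 these differences were -0.945, -1.52 and -1.11. The testis form Cox8c rose, from 6.35, 6.48 and 6.50 to 7.31, 7.38 and 7.21 (0.86, SE 0.07, adjusted p = 0.000186). Of the other testis forms, named after their values were seen, Cox6b2 fell (-0.19, adjusted p = 0.044) and Cox7b2 did not pass (0.02).

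**Figure D2:**
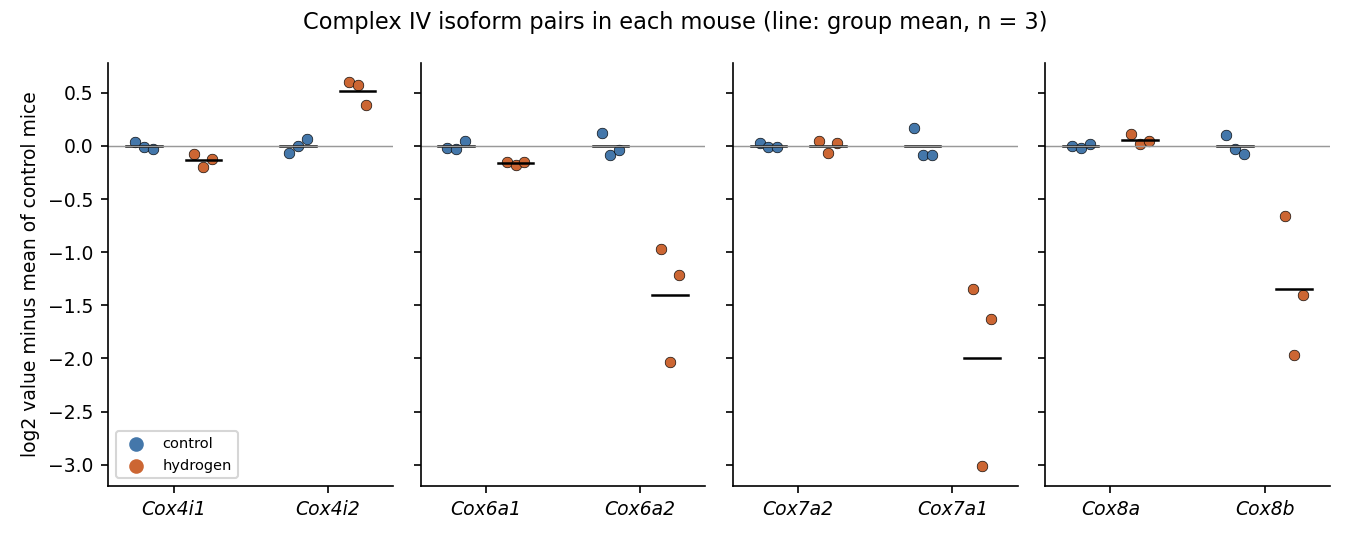
Log2 value minus the mean of the control mice (vertical axis, log2 units) for the isoform pairs of subunits 4, 6a, 7a and 8 of complex IV; points are single mice (blue control, orange hydrogen) and the black line is the group mean (n = 3). The muscle forms Cox6a2, Cox7a1 and Cox8b lie 1.34 to 2.00 below their controls on average, Cox6a1, Cox7a2 and Cox8a between -0.16 and 0.06, and Cox4i2 0.52 above.

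In complex V, 10 of 16 genes fell, none rose and 6 did not pass (median log2 fold change -0.23; at an unadjusted p under 0.05 limma gave 11 lower and 0 higher). In the head and central stalk 2 of 5 genes fell, with a median of -0.12, which is near the background of the brightness range (38.2% lower, median -0.12). Atp5a1 and Atp5b, the alpha and beta subunits that form the catalytic hexamer, had -0.12 and -0.06 (adjusted p = 0.127 and 0.561), with overlapping groups. Atp5c1, the gamma subunit that forms the rotating shaft, fell from 10.39, 10.33 and 10.36 in control mice to 10.05, 9.92 and 10.08 in hydrogen mice (-0.34, SE 0.06, adjusted p = 0.00241). Atp5d, the delta subunit, did not pass, with 9.90, 9.95 and 9.79 against 9.93, 9.92 and 9.94 (0.05, SE 0.06, adjusted p = 0.505). Atp5e, the epsilon subunit, had -0.18, and its call ended without control mouse 1 or 2 or hydrogen mouse 1 or 2 (adjusted p = 0.0564, 0.0575, 0.0572 and 0.0588). After cyclic loess and after renewed quantile normalisation Atp5e was at -0.04 (adjusted p = 0.607 and 0.61).

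All 4 genes of the peripheral stalk, the stator that holds the head still, fell by similar amounts. Atp5f1, the b subunit, had 9.62, 9.57 and 9.57 in control mice and 9.30, 9.08 and 9.19 in hydrogen mice (-0.40, SE 0.07, adjusted p = 0.0019). Atp5h, the d subunit, had 11.38, 11.21 and 11.21 against 10.95, 10.88 and 10.92 (-0.35, SE 0.06, adjusted p = 0.0028). Atp5j, coupling factor 6, and Atp5o, the subunit that confers sensitivity to oligomycin, had -0.36 and -0.37. The groups did not overlap for any of the 4. In the brightness range of the members, 38.2% of all genes were called lower, and 48.8% had all hydrogen values below all control values. After cyclic loess Atp5o missed the threshold (-0.21, adjusted p = 0.0582), while the other stalk genes passed with -0.25 to -0.29.

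The 3 genes that encode the c subunit of the rotor ring make the same mature protein, and 2 of the 3 fell. Atp5g1 fell from 9.03, 9.01 and 8.93 in control mice to 8.58, 8.23 and 8.34 in hydrogen mice, a level 1.52-fold lower (-0.61, SE 0.09, adjusted p = 0.00102). Atp5g2 fell from 8.79, 8.61 and 8.64 to 8.47, 8.41 and 8.39 (-0.26, SE 0.07, adjusted p = 0.0112). Atp5g3 did not pass, with 11.23, 11.08 and 11.14 against 11.16, 10.92 and 11.13 and overlapping groups (-0.08, SE 0.08, adjusted p = 0.41). Atp5g1 minus Atp5g3 within an array was -2.16 ± 0.08 in controls and -2.69 ± 0.11 in hydrogen mice (SD, n = 3; exact permutation p = 0.1, two-sided, the smallest possible, and 0.1 after adjustment over 3 pairs). This comparison was chosen after the values were seen. The bright probe sets of Atp5g1 and Atp5c1 are marked as shared by several transcripts, and the dimmer ones left without them had 0.09 and 0.10, neither past the threshold. After cyclic loess Atp5g1 kept -0.43, while Atp5g2 had -0.08 (adjusted p = 0.36).

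Membrane subunits and the inhibitor completed complex V. Atp5l, the g subunit at the dimer interface, fell by 0.44 and Atp5k, the e subunit, by 0.21 on the log2 scale, and Atp5j2, the f subunit, did not pass (-0.13, adjusted p = 0.0838). The call of Atp5k ended after cyclic loess (-0.08, adjusted p = 0.252) and after renewed quantile normalisation (-0.11, adjusted p = 0.146). Atpif1, the inhibitor that stops the enzyme from running backwards, had 9.14, 9.21 and 9.06 in control mice and 8.95, 8.96 and 9.07 in hydrogen mice. The groups overlapped through hydrogen mouse 3 (-0.14, SE 0.06, adjusted p = 0.0886).

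**Figure D3:**
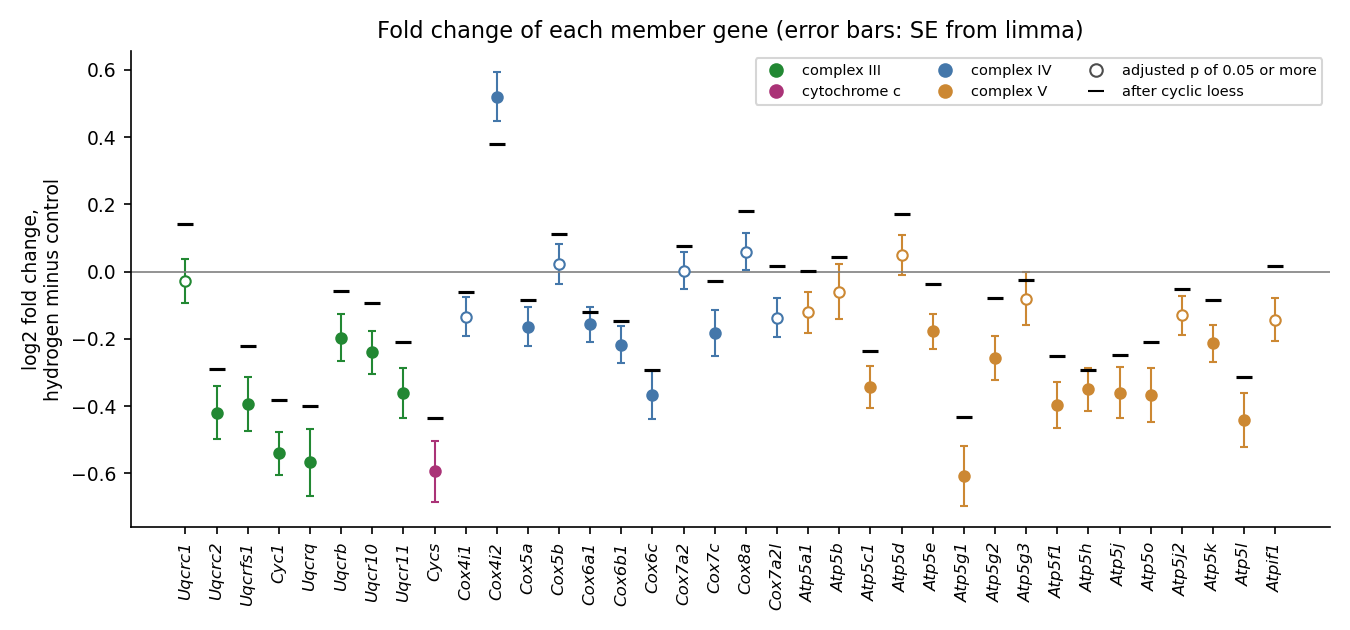
Log2 fold change of each member gene, hydrogen minus control (vertical axis), coloured by complex; points are limma estimates with SE bars, filled where the adjusted p was under 0.05, and black dashes are the estimates after cyclic loess. Most dashes lie nearer to 0 than the points of the lower genes, and Cyc1, Cycs and Atp5g1 remain at -0.38, -0.44 and -0.43.

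Promoter windows from RefSeq (GRCm38.p6, 250 bases before to 50 after the start of a gene) were given for 30 of the 38 members. They were searched on both strands for GCGCA and GCGC with any 1 base between them, a core of sites of the nuclear respiratory factor NRF1, which is known for regulating respiratory chain genes, and for CCGGAAGT, a core of ETS sites such as those of GABP. The motifs were counted separately, and in the window of Atp5h, which held both, their matches lay apart. The NRF1 letters were found in windows of 9 of 30 members (30.0%) and of 5.19% of all 27025 genes with a window, and the ETS letters in 4 of 30 (13.3%) and 4.31%. Of the members with the NRF1 letters, 6 of the 9 measured fell (median log2 fold change -0.21), and of those without, 12 of the 19 measured fell (median -0.18). The windows of Cycs and Atp5g1, the members with the largest falls, held neither motif. A match is a description of letters and not a bound site. The bases before the start are shown for 3 members that were lower and held the NRF1 letters, a shaft gene, a stalk gene and a complex IV gene, with NRF1 matches in capitals and, in Atp5h, the ETS match ACTTCCGG in capitals too, read on the strand of each gene.
Atp5c1, chr2:10080433-10080682, minus strand: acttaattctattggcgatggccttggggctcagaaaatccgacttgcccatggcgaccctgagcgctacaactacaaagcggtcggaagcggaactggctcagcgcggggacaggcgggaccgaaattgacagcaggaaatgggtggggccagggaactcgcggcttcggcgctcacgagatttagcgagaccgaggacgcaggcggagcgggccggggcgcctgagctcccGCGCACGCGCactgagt
Atp5h, chr11:115419920-115420169, minus strand: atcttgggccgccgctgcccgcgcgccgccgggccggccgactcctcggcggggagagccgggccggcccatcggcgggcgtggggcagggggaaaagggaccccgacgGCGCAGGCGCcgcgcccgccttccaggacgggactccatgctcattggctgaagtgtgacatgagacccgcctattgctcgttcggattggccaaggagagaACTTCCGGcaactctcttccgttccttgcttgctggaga
Cox6a1, chr5:115348959-115349208, minus strand: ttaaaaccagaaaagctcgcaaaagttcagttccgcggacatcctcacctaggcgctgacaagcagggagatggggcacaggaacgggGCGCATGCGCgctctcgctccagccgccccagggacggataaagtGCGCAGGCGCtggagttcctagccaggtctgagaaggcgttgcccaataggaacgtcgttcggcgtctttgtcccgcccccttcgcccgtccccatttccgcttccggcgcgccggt

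The match in Atp5c1 began 17 bases before the start and that in Atp5h 141 bases before it, while Cox6a1 held 2 matches, 162 and 117 bases before the start. Beside these, Atp5c1 and Atp5h fell by 0.34 and 0.35 on the log2 scale and Cox6a1 by 0.16. Atp5g3, whose window held the NRF1 letters as well, did not pass.

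Several probe sets were named to 20 of the 36 measured members, and they did not always move together. Over all 64 probe sets, 33 were lower, 4 higher and 27 did not pass (limma adjusted over 45037 probe sets, of which 22.8% were lower and 24.3% higher). The 4 higher probe sets were all dim. Of the 9 member probe sets that did not exceed the array-wide median, 4 rose and 0 fell (limma; 0 also at an unadjusted p under 0.05), where 32.0% of all such dim probe sets were called higher and 7.31% lower. Among the 55 brighter ones 33 were lower and none higher, where 38.2% were lower and 16.7% higher. Uqcrq is an example: its bright probe set fell from 9.14 ± 0.19 to 8.57 ± 0.11 (SD, n = 3), while a probe set with 4.47, 4.35 and 4.37 in control mice rose to 5.20, 5.32 and 4.98 (0.77, SE 0.09, adjusted p = 0.000533) and another dim one rose by 0.36. Cox5b had probe sets past the threshold in both directions as well, with -0.26 for a bright one and 0.38 for a dim one.

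For 4 genes the brightest probe set did not pass and the next one fell. Atp5j2 is the clearest: its brightest probe set had -0.13, and the next had 10.14, 10.12 and 10.12 in control mice and 9.66, 9.58 and 9.72 in hydrogen mice (-0.47, SE 0.06, adjusted p = 0.000618). For Cox5b, Cox7a2 and Atp5d the brightest probe sets had 0.02, 0.003 and 0.05 and the next -0.26, -0.20 and -0.25. The reverse held for 5 genes, whose brightest probe set fell while the next one above the median did not pass. For Cox6a1, Cox6b1 and Uqcr10 the next had -0.08, -0.12 and -0.13, for Cox5a -0.18 (adjusted p = 0.0541) and for Atp5c1 0.10. Those of Uqcr10 and Atp5c1 were far dimmer than the brightest (mean log2 values 5.26 and 5.43, against 9.33 and 10.19). All genes in the brightness decile from 4.99 to 5.65 had a median log2 fold change of 0.10. Whether the next probe sets measure other transcripts of the gene was not tested.

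**Figure D4:**
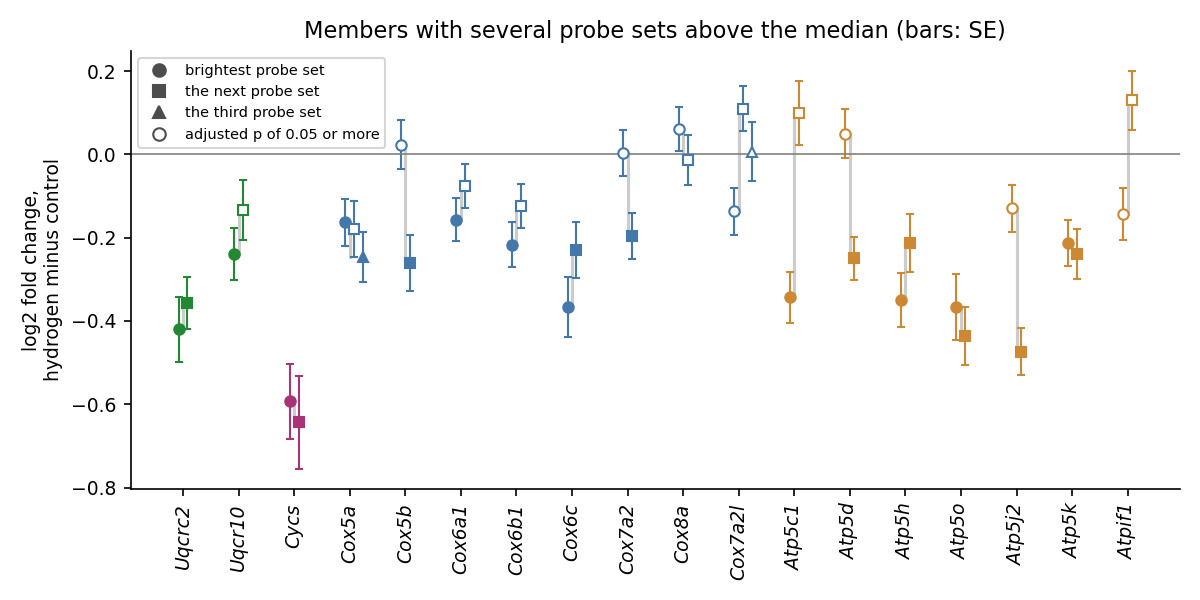
Log2 fold change, hydrogen minus control (vertical axis), of each probe set above the median for the 18 members with several such probe sets; circles are the brightest, squares the next and triangles the one after, bars are limma SE, and open symbols did not pass. For Cox5b, Cox7a2, Atp5d and Atp5j2 the open circle lies near 0 to -0.13 and the filled square at -0.20 to -0.47.

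Most members were bright. Of the 36 representative probe sets, 34 lay in the brightest decile of genes, where the median log2 fold change was -0.10 and the interquartile range ran from -0.24 to 0.01. Values of the hydrogen arrays had a narrower spread over probe sets (SD 1.80 to 1.81, against 1.90 to 1.92 in controls). After cyclic loess, which evens out such trends, the median of the members was -0.09, against 0.02 over the genes of their brightness range, and after renewed quantile normalisation it was -0.08 against 0.02. The 9 genes that passed under every alternative that measured them were Cyc1, Uqcrc2, Cycs, Cox6c, Atp5f1, Atp5h, Atp5j and Atp5l, all lower, and Cox4i2, higher.

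**Figure D5:**
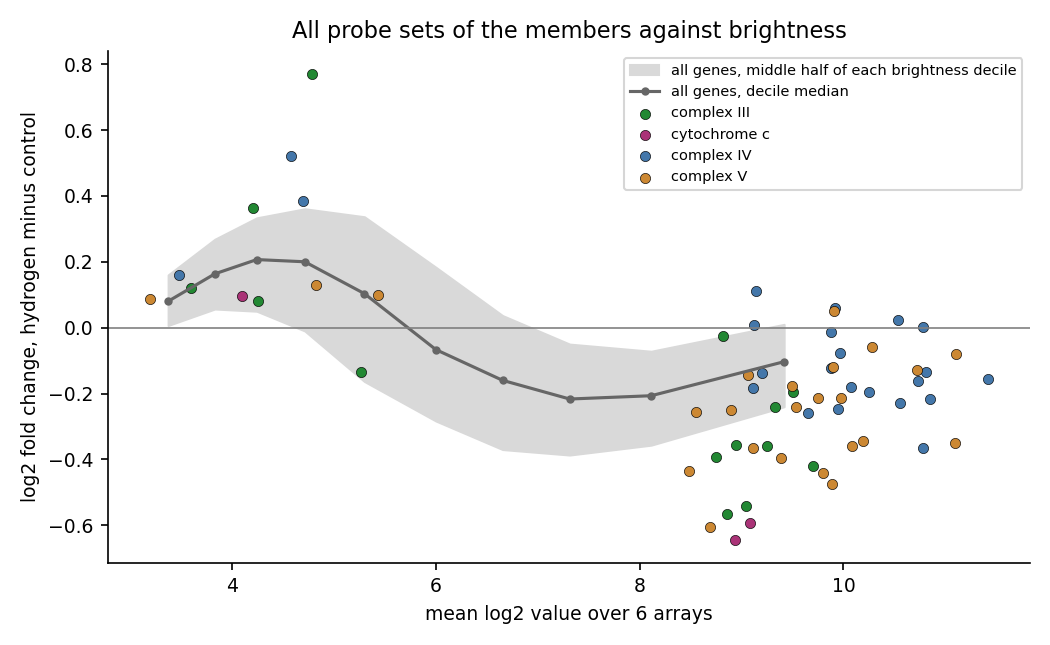
Log2 fold change, hydrogen minus control (vertical axis), against the mean log2 value over the 6 arrays (horizontal axis) for all 64 member probe sets, coloured by complex; the grey line and band are the median and the interquartile range of all 17097 genes in each brightness decile. Dim member probe sets lie above 0 as do most dim genes, and the lowest bright ones reach -0.64, below the band.

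Hydrogen mouse 2 had the lowest levels. Against the control means, the median shift over the 36 members was -0.19, -0.26 and -0.18 in hydrogen mice 1, 2 and 3, and in complex III it was -0.27, -0.53 and -0.34. Mouse 2 held the lowest of the 6 values for 27 of the 36 members. Without hydrogen mouse 2, 18 members were lower and their median log2 fold change was -0.18. In that setting 21.3% of all genes were lower. In the brightness range of all members but Cox4i2, 28.2% were lower and the median was -0.115.

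Markers of heart muscle were also lowest in hydrogen mouse 2, as were those of some other cell types. Of 19 measured cardiac markers, 15 fell, 3 rose and 1 did not pass (median log2 fold change -1.63), and 3 of the 19 were dim, not above the median probe set. Their list mean was 7.50 to 7.73 in control mice and 5.46 to 6.72 in hydrogen mice, with median shifts of -1.02, -2.30 and -1.29 in hydrogen mice 1, 2 and 3. The shifts in the same order were -0.50, -0.585 and -0.41 for ciliated cell markers and -0.32, -0.42 and -0.26 for club cell markers. For alveolar macrophage markers they were -0.11, -0.24 and -0.09. Alveolar type 1, fibroblast, endothelial and fat cell markers had their lowest median shift in another hydrogen mouse. By the list mean, however, fibroblast and white fat cell markers were lowest in hydrogen mouse 2 (7.70 and 4.94). Of all genes above the median probe set, 38.6% were lower and 16.7% higher. Ciliated cell markers fell in 6 of 8 cases (list mean 6.56 to 7.01 in controls and 6.22 to 6.35 in hydrogen mice). Club cell markers fell in 5 of 8 (11.6 to 11.7 and 9.68 to 11.2) and fibroblast markers in 4 of 8 (8.09 to 8.17 and 7.70 to 7.87). Alveolar type 1 markers fell in 4 of 6 cases (median -0.16), and of 6 alveolar type 2 markers none fell and 1 rose (median -0.003). Of 12 skeletal muscle markers 2 fell and 6 rose, and 9 of the 12 were dim, where 32.0% of all dim probe sets were higher. The part of these cell types in the lower levels of the members was not tested. Lists for brown and white fat cells, endothelium, macrophages, T cells, B cells, neutrophils and erythroid cells had medians from -0.20 to 0.37. Single markers could move more: of 4 white fat markers 1 fell, Adipoq (-2.43, limma adjusted p = 0.0279), and 1 rose. Of 6 brown fat markers, among them Cox8b, 3 fell and 2 rose, and 3 of the 6 were dim.

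Other genes of the same enzymes were read from lists of assembly factors and partners. Of 20 measured assembly factors of complex IV, 11 fell and 1 rose (median log2 fold change -0.22), where 38.6% of all genes above the median probe set were lower and their median was -0.12. The means of this list were 7.10 to 7.33. All genes in the brightness decile from 6.965 to 7.67 had a median of -0.22 too, so the list median did not differ from that of similarly bright genes. Surf1, which helps to build the core of complex IV and is mutated in Leigh syndrome, had 8.09, 8.10 and 8.04 in control mice and 7.67, 7.62 and 7.65 in hydrogen mice (-0.43, SE 0.05, adjusted p = 0.000522). Coa6, a copper delivery factor, had -0.45. Of 5 assembly factors of complex III, 2 fell, Uqcc2 (-0.43) and the dim Ttc19 (-0.30). Of 8 other subunits and assembly factors of complex V, 4 fell and 1 rose, with the largest falls for Fmc1 (-0.61), from 8.02, 7.90 and 7.82 to 7.34, 7.27 and 7.30, and Tmem70 (-0.59), which promotes assembly of the rotor. The median of this complex V list was -0.17 and its means were 6.70 to 6.97. All genes in the brightness decile from 6.31 to 6.96 had a median of -0.16.

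Among 8 further genes, most of which work with cytochrome c or carry the substrates of complex V, 3 fell, 5 did not pass and none rose in limma. That share is near the 38.6% of all genes above the median probe set, and the median of the list was -0.08 against -0.12 for those genes. Hccs, the enzyme that attaches heme to cytochrome c and c1, had 6.83, 6.81 and 6.69 in control mice and 6.12, 6.22 and 5.89 in hydrogen mice (-0.70, SE 0.09, adjusted p = 0.000571). It fell alongside both of its substrates, Cycs (-0.59) and Cyc1 (-0.54). Slc25a4, the adenine nucleotide carrier of heart and muscle, had 10.82, 10.78 and 10.84 against 10.45, 10.07 and 10.34 (-0.53, SE 0.09, adjusted p = 0.00221). The widely expressed carrier Slc25a5, named after its values were seen, had -0.04 (adjusted p = 0.66). The list also held Ndufa4, which fell (-0.39, limma adjusted p = 0.0057), and the dim Cyct, a testis cytochrome c, which did not pass (0.12). Both were named after their values were seen. The mitochondrially encoded subunits were not analysed here.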

How the data were processed

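RNA of 6 mouse lungs was measured on MG-430 PM Array Strips, per the labels. The authors deposited log2 values per probe set, made with RMA and Affymetrix Expression Console per the submitters' processing notes. The sources used here give neither versions nor whether the arrays were normalised together. Each mouse is a replicate on 1 array. The 104 control probe sets by name were left out of the tests of 45037. Platform annotation named genes, and the brightest probe set over all arrays stood for a gene.

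The comparison used limma's lmFit and eBayes (version 3.58.1, R 4.3.3) without a filter, with Benjamini-Hochberg adjustment and a threshold of 0.05. The fit was tested on simulated data, where it recovered 25% of the genes changed by 0.3 and 78% of those changed by 0.6 on the log2 scale. Only 100 of 17097 genes were changed by each size, far fewer than the 52.5% called in the data. The recovery in the data can therefore differ. Members, lists and tests were chosen with earlier results of these data known. Values in every mouse were given for the 3 members with the smallest p and the largest and smallest change per complex, preset members (Cycs, the subunit 4 and c subunit isoforms, Atpif1), members with opposing probe sets, the muscle isoforms and up to 2 genes per list. Other members were given by their fold change. Atp5h, shown for its promoter, and Atp5j2, shown for its probe sets, fall outside this rule and were chosen after their values were seen. Alternatives were a replicate block, centring, renewed quantile normalisation, cyclic loess, array weights, a trend and robust prior variance, no dim probe sets, means of probe sets, no shared probe sets, and each array left out in turn. Deviations of same-numbered arrays correlated at 0.08, 0.03 and -0.13, so the numbers were not taken as pairs. Figures were drawn with matplotlib 3.10.9.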

Additional observations from a re-analysis of the deposited data

How the results depend on the processing

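Of the 24 members past the threshold, 9 stayed past it under every alternative that measured them and 15 were lost at least once. Of the 12 others, 8 passed at least once. With a replicate block 20 members fell, and complex IV had 2 lower genes in place of 5, where 24.9% of all genes were lower. With arrays centred on the median, the median of the members was -0.295, against -0.21 over the genes of their brightness range, of which 58.7% were lower. Renewed quantile normalisation gave 12 lower members (3, 2 and 6 in complexes III, IV and V), a median of -0.0815 and 16 lower probe sets. Cyclic loess gave 11 lower and 2 higher members (3, 1 and 6 lower in complexes III, IV and V), a median of -0.085 and 15 lower probe sets. Over all genes, the shares lower and higher were 26.4% and 26.1% as deposited, 36.4% and 16.1% when centred, 14.7% and 23.1% after quantile normalisation and 16.2% and 20.6% after cyclic loess. Without dim probe sets 0 members and 0 member probe sets were higher in limma (0 members also at an unadjusted p under 0.05). Of all genes left there, 16.4% were higher. With the mean of all probe sets 2 members were higher, where 28.1% of all genes were higher, and Uqcrq was 0.16. Without shared probe sets 28 members were measured, and 15 were lower and 3 higher, with 4 and 3 lower in complexes III and IV and 15 lower probe sets. Of all genes in that setting, 24.96% were lower and 26.86% higher. There dimmer probe sets stood for Uqcrq (0.77), Atp5c1 (0.10), Atp5g1 (0.0867) and Uqcr10 (0.12). The pairs Cox4i2 with Cox4i1 and Cox6a2 with Cox6a1 gave no value there. Leaving out 1 array gave 18 to 21 lower members, and 2 to 4 in complex IV, where 21.3% to 24.2% of all genes were lower. The isoform differences kept their direction wherever measured. The cause of the changes with scaling was not tested. Signals near the median probe set, such as that of Cox4i2, are limited by low brightness.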
